A study of Homo sapiens with 2 samples.

Results

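The luminal epithelial lineage genes examined here are AGR2, TBC1D9, XBP1, GATA3, FOXA1, SPDEF, ELF3, EHF and MUC1, 9 of the 13017 genes measured. They were chosen by name, with their values in these libraries already known, so their levels and ratios are given as a description. RNA was sequenced from a human breast cancer line that the labels call 468, an epithelioid line grown in L15 medium with serum. One library came from cells with THAP7-AS1 knockdown, made by transfecting a Smart Silencer (a commercial mix of silencing oligonucleotides) against this antisense RNA, and the other from si-NC control cells. Both were collected at 48 h, and the groups follow the genotype label, since the silencer is named in the treatment label of either sample. With 1 library per group no difference has a replicate check.

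Luminal cells line the ducts and lobules of the breast and secrete into them, while basal cells form the outer layer of the ducts. GATA3 and FOXA1 are the transcription factors that, with the estrogen receptor, maintain luminal identity; FOXA1 opens chromatin for other factors. SPDEF, ELF3 and EHF are epithelial members of the ETS family of DNA-binding factors. XBP1 drives the genes that enlarge the secretory pathway, AGR2 is a disulfide isomerase of the endoplasmic reticulum needed for mucin production in mouse intestine, MUC1 is a mucin of the luminal cell surface, and TBC1D9 belongs to a family of GTPase-activating proteins for Rab GTPases.

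The deposited values were FPKM, fragments scaled by gene length and by library size, which permits levels of different genes to be set side by side within a library. The tables summed to 213442 FPKM in the knockdown library and 213888 FPKM in the control library. Depth was not given. It was estimated from what were taken as the smallest steps of the values, at about 11100000 fragments in the knockdown library and 10900000 fragments in the control library. The target THAP7-AS1 is not analysed here, so its own level gives no check of the knockdown.

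The levels of the luminal genes were highest for the ETS factor SPDEF and lowest for TBC1D9. In knockdown cells the 9 levels ran from 6.07 to 85.01 FPKM with a median of 22.8 FPKM, and in control cells from 3.97 to 71.5 FPKM with a median of 20.9 FPKM. All 9 passed the filter used here, a mean over the libraries of no less than 1 FPKM, as did 10925 genes in all. The median level over those genes was 6.79 FPKM in knockdown cells and 6.74 FPKM in control cells. SPDEF ranked 302nd of 13017 genes by level in knockdown cells and 389th in control cells. AGR2 ranked 4225th in knockdown cells and 5844th in control cells, and TBC1D9 5876th in knockdown cells and 7397th in control cells.

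**Figure D1:**
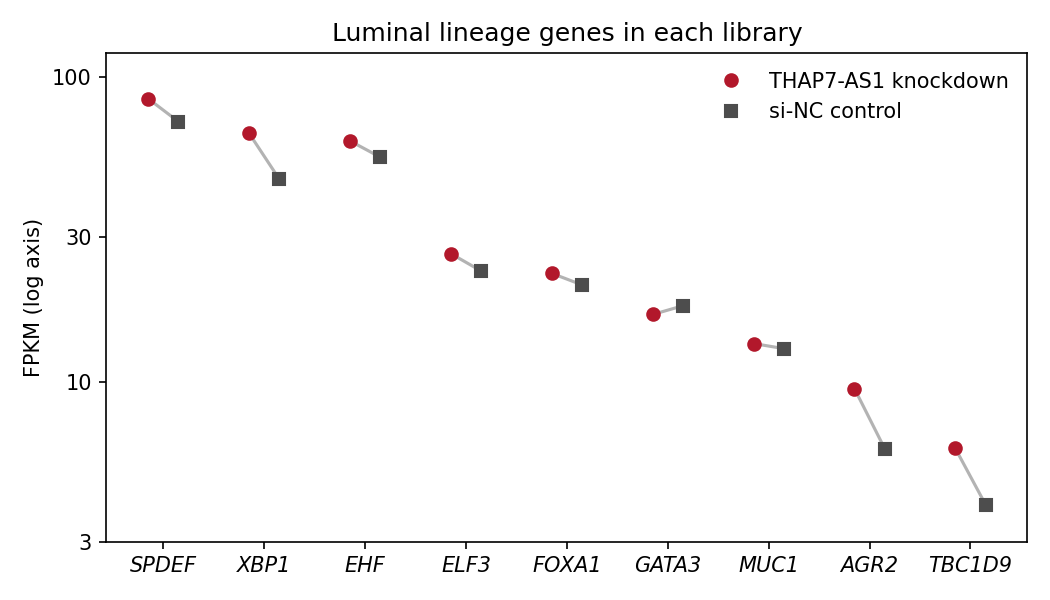
FPKM (log axis) of the 9 luminal lineage genes in the THAP7-AS1 knockdown library (circles) and the si-NC control library (squares), 1 library each, ordered by level in knockdown cells. The circle is above the square for 8 genes and below it for GATA3.

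The order of the levels was nearly shared by the libraries. In knockdown cells it was SPDEF, XBP1, EHF, ELF3, FOXA1, GATA3, MUC1, AGR2 and TBC1D9, and in control cells XBP1 and EHF changed places. The neighbours XBP1 and EHF, at 65.5 and 61.8 FPKM in knockdown cells, did not differ beyond the estimated counting error. Nor did ELF3 and FOXA1 in control cells, at 23.2 and 20.9 FPKM. This error covers the counting of fragments only, not the spread between cultures or any error in the gene lengths behind FPKM.

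The ratio between the libraries was taken as log2((knockdown FPKM + 1)/(control FPKM + 1)). On this FPKM + 1 scale 8 of the 9 genes were above 0, where 53.1% of all 10925 genes were. The other, GATA3, was below 0, as were 46.9% of all genes. The median log2 ratio of the 9 was 0.18 against 0.02 for all genes. None of the 9 was at least 1.5-fold higher in knockdown cells (0 of 9, where 2.98% of all genes were), and none was at least 1.5-fold lower (2.46% of all genes were). Without the added 1, AGR2 and TBC1D9 were at least 1.5-fold higher, as were 5.36% of all genes. On the FPKM + 1 scale none reached 2-fold, a distance that 0.604% of all genes passed upward and 0.668% downward. The ratios lay in 2 ranges, with AGR2, TBC1D9 and XBP1 between 0.49 and 0.58 and the other 6 genes between -0.09 and 0.25.

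**Figure D2:**
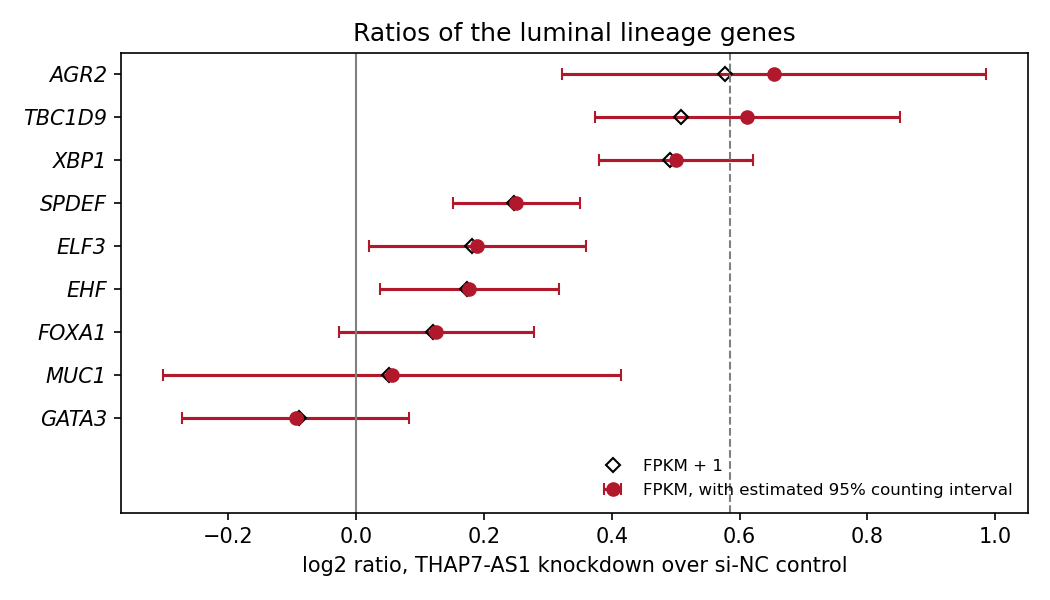
Log2 ratio of each luminal lineage gene, THAP7-AS1 knockdown over si-NC control. Filled circles are ratios of FPKM with an estimated 95% counting interval, open diamonds ratios of FPKM + 1, and the dashed line is 1.5-fold; AGR2, TBC1D9 and XBP1 lie furthest right and GATA3 left of 0.

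AGR2, the disulfide isomerase, had the largest ratio of the 9. It was at 9.54 FPKM in knockdown cells, against 6.06 FPKM in control cells. Its log2 ratio on the FPKM + 1 scale was 0.58, a fold of 1.49, which ranked 338th of 10925 genes. Among the 4815 genes within 2-fold of its level, 2.95% had a ratio at least as high. About 189 fragments lay behind the knockdown value and 118 behind the control value, by the estimated depth. Without the added 1 the log2 ratio was 0.65, with an estimated 95% counting interval of 0.32 to 0.99.

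The window around the AGR2 start site is shown because AGR2 had the largest ratio. RefSeq places it at chr7:16804950-16805249 (GRCh38.p14, minus strand), and it runs from 250 bases before the start site to 50 bases after it. Capitals mark a GATA motif, AGATAA, found 119 to 114 bases before the start site. This motif stood on either strand in 10.3% of 35116 RefSeq promoter windows of this length.
AGR2 promoter: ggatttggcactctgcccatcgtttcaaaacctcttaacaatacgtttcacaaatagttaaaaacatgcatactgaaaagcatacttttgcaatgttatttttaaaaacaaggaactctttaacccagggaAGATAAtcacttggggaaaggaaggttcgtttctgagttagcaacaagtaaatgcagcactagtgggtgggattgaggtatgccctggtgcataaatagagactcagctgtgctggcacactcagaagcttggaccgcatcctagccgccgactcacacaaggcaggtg
The match is a run of letters and not a shown binding site.

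Relatives of AGR2 in the disulfide isomerase family did not lie together. Of 17 measured, 6 were above 0 and 11 below, with a median log2 ratio of -0.02 on the FPKM + 1 scale. None was at least 1.5-fold higher and 1 was at least 1.5-fold lower. That gene, TXNDC5, was at 9.92 FPKM in knockdown cells, against 16.7 FPKM in control cells. A separate entry outside this list, BLOC1S5-TXNDC5, averaged 54.0 FPKM over the libraries, with a log2 ratio of -1.04. How reads were divided between these entries was not tested, so the level of TXNDC5 may be only a part. P4HB, the isomerase that is also a subunit of prolyl hydroxylase, had the next highest ratio after AGR2, at 67.2 FPKM in knockdown cells and 49.6 FPKM in control cells. By level AGR2 was 10th of the 18 isomerase genes in knockdown cells and 15th in control cells; PDIA6 led both libraries with 148 and 149 FPKM.

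TBC1D9, which is expressed with the estrogen receptor in breast tumours, was at 6.07 FPKM in knockdown cells, against 3.97 FPKM in control cells. Its log2 ratio was 0.51 on the FPKM + 1 scale and 0.61 without the added 1, with an estimated counting interval of 0.37 to 0.85. Its closest relative by name, TBC1D9B, was at 16.7 FPKM in knockdown cells and 15.8 FPKM in control cells, a log2 ratio of 0.07. The 15 TBC1D relatives kept by the filter had a median log2 ratio of -0.04, with 1 at least 1.5-fold higher, TBC1D20, and 1 at least 1.5-fold lower, TBC1D5. TBC1D20 was at 5.54 FPKM in knockdown cells and 3.33 FPKM in control cells. TBC1D5, a partner of the retromer, was at 2.12 FPKM in knockdown cells and 3.75 FPKM in control cells.

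XBP1 combined a high level with a ratio near that of AGR2. It was at 65.5 FPKM in knockdown cells, against 46.3 FPKM in control cells, which put it 457th and 739th of all genes by level. The log2 ratio was 0.49 on the FPKM + 1 scale; among genes within 2-fold of its level the SD of the ratio, computed from the MAD (median absolute deviation), was 0.18. The estimated counting interval, without the added 1, was 0.38 to 0.62, narrower than for AGR2 because about 1349 fragments lay behind the knockdown value and 937 behind the control value. Within each library XBP1 stood at 3.92 times the level of GATA3 in knockdown cells and 2.60 times in control cells.

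XBP1 messenger RNA is made into its active form when the endoplasmic reticulum sensor IRE1 cuts out a short piece of coding sequence, which shifts the reading frame. That piece is printed because the FPKM of a gene adds the cut and uncut forms, so the ratio above says nothing about splicing. In GENCODE release 29 one XBP1 transcript holds 26 bases that another lacks, in capitals here with 30 bases on either side.
XBP1 transcript: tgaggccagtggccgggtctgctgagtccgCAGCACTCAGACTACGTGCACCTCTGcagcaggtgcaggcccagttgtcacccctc
Because the ends repeat, 7 placements of the 26 bases fit the 2 transcripts equally, and the one shown starts with CAG and ends with CTG. Of 7 annotated XBP1 transcripts, 4 held the piece and 2 lacked it.

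A start window of XBP1 is shown because it holds a rare motif. RefSeq gives 2 windows for the gene, and the other held none of the motifs searched. The window shown is chr22:28800520-28800819 (GRCh38.p14, minus strand). Capitals mark an endoplasmic reticulum stress element, CCAAT and CCACG with 9 bases of any kind between them, found 52 to 34 bases before the start site.
XBP1 promoter: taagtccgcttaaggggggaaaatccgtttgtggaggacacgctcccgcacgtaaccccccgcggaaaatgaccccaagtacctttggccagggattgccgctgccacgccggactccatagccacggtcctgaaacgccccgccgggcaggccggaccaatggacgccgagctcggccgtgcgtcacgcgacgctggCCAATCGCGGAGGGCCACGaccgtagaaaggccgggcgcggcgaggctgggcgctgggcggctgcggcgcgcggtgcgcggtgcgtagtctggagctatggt
This element is known for binding ATF6, another sensor of the unfolded protein response. It was found on either strand in 0.0769% of the 35116 windows. ATF6 was at 8.12 FPKM in each of the 2 libraries.

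The genes listed as XBP1 targets of the secretory pathway lay on both sides of 0. The list also holds ATF6 and ERN1, the gene of IRE1, which are sensors of the unfolded protein response, so not every member is a plain target. Of 40 listed, all measured, 18 were above 0 and 22 below, with a median log2 ratio of -0.01 on the FPKM + 1 scale. None was at least 1.5-fold higher and 1 was at least 1.5-fold lower. SPCS3, a subunit of the signal peptidase, was at 4.73 FPKM in knockdown cells, against 9.99 FPKM in control cells. DNAJB9, a cochaperone often used as a marker of spliced XBP1, was at 5.93 FPKM in knockdown cells and 9.21 FPKM in control cells. SERP1, a stabiliser of membrane proteins in the reticulum, went the other way at 33.1 FPKM in knockdown cells and 21.9 FPKM in control cells. The chaperone HSPA5 was at 86.0 FPKM in knockdown cells and 85.7 FPKM in control cells.

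GATA3 was the only one of the 9 below 0. It was at 16.7 FPKM in knockdown cells, against 17.8 FPKM in control cells, a log2 ratio of -0.09 on the FPKM + 1 scale, and its estimated counting interval of -0.27 to 0.08 without the added 1 spanned 0. Its level was the highest of the 4 GATA genes measured, with 78.9% of their summed FPKM in knockdown cells and 79.6% in control cells. GATA6 followed at 3.01 FPKM in knockdown cells and 2.94 FPKM in control cells. TRPS1, an atypical GATA factor of the luminal lineage, was at 11.5 FPKM in knockdown cells and 8.39 FPKM in control cells.

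FOXA1 was at 22.8 FPKM in knockdown cells, against 20.9 FPKM in control cells. The log2 ratio was 0.12 on the FPKM + 1 scale, and the estimated counting interval without the added 1, -0.03 to 0.28, spanned 0. It was the most abundant of 15 listed forkhead genes in both libraries. FOXC1, a forkhead factor of basal-like tumours, had rank 3 in both at 17.8 FPKM in knockdown cells and 17.2 FPKM in control cells. FOXM1, a factor of dividing cells, had rank 4 in knockdown cells at 15.2 FPKM and rank 2 in control cells at 18.0 FPKM. FOXP4 was the 1 gene at least 1.5-fold higher among 25 GATA and forkhead relatives and partners, at 20.8 FPKM in knockdown cells and 13.4 FPKM in control cells. The median log2 ratio of those 25 was 0.02 and none was at least 1.5-fold lower. FOXA1 shares exon bases with TTC6 on the opposite strand, and no source used here says whether the libraries kept strand, so reads of the 2 genes cannot be told apart there.

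The 3 ETS factors were close in ratio. SPDEF, which drives goblet and secretory cell fates in mouse, was at 85.0 FPKM in knockdown cells, against 71.5 FPKM in control cells. EHF was at 61.8 FPKM in knockdown cells, against 54.7 FPKM in control cells. ELF3 was at 26.4 FPKM in knockdown cells, against 23.2 FPKM in control cells. All 3 were higher in the knockdown library, with log2 ratios on the FPKM + 1 scale of 0.25 for SPDEF, 0.18 for ELF3 and 0.17 for EHF. Without the added 1 their estimated counting intervals began at 0.15, 0.02 and 0.04. SPDEF alone of the 3 had a ratio above the SD computed from the MAD for genes at its level, 0.16. The other 2 fell just short, ELF3 at 0.182 against 0.192 and EHF at 0.174 against 0.175. EHF stayed at 2.34 times the level of ELF3 in knockdown cells and 2.36 times in control cells. ELF3 shares exon bases with ELF3-AS1 on the opposite strand and with AL691482.3 on its own strand, and reads there cannot be told apart.

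The SPDEF start window is printed because SPDEF was the most abundant of the 9 genes. RefSeq gives it as chr6:34556280-34556579 (GRCh38.p14, minus strand). Capitals mark a forkhead motif, TATTTAC, which lies on the other strand and so reads GTAAATA, 49 to 43 bases before the start site.
SPDEF promoter: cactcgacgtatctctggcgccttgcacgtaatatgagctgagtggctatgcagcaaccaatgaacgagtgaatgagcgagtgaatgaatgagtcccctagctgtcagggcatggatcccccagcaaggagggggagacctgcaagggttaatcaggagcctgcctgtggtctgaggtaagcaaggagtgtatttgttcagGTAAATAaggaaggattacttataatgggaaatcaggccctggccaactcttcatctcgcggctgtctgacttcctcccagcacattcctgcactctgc
Letters of this form were in 2.67% of the 35116 windows, and the related TGTTTAC was in 3.42%. EHF had TGTTTAC in the second of its 2 windows, 196 to 190 bases before that start site. The same EHF window held AGATAA, the GATA motif marked for AGR2, 236 to 231 bases before the start site. Other motifs searched on both strands were CCGGAA of ETS factors, in 17.2% of windows, and TATAAA, in 11.5%. Windows were found for 8 of the 9 genes, 16 in all, and the 2 of MUC1 overlap. At least 1 of the 6 motifs was in 10 of the 16, where 38.7% of all windows held one. The motifs include those of factor families among the 9 genes, and GATA3 alone has 6 of the windows. The count is therefore a description and no test of enrichment.

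Among the 21 ETS genes measured, SPDEF and EHF were the 2 most abundant in both libraries. ELF3 had rank 3 in knockdown cells and rank 4 in control cells. Together the 3 luminal ETS factors made up 59.1% of the summed FPKM of the family in knockdown cells and 52.5% in control cells. These 3 were chosen with their ratios, all above 0, already known, so a higher share in knockdown cells follows in part from the choice. The difference in share came from both sides. The 3 factors summed to 173 FPKM in knockdown cells and 149 FPKM in control cells, while the other 18 summed to 120 FPKM in knockdown cells and 135 FPKM in control cells. ELK1, a target of ERK signalling and the most abundant of the others, was at 21.5 FPKM in knockdown cells, against 30.1 FPKM in control cells. ELF4 was at 10.01 FPKM in knockdown cells and 13.9 FPKM in control cells. Of the 15 relatives kept by the filter, 5 were above 0 and 10 below, with a median log2 ratio of -0.08. None was at least 1.5-fold higher and 1 was at least 1.5-fold lower. That gene, ELK3, was at 1.43 FPKM in knockdown cells and 3.28 FPKM in control cells.

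**Figure D3:**
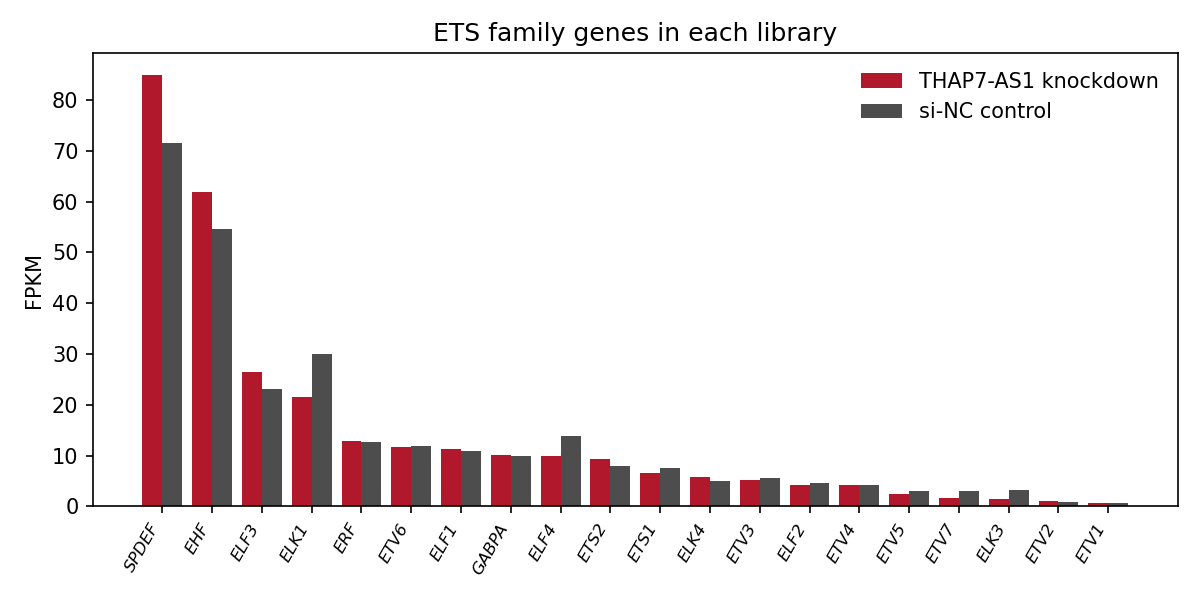
FPKM of ETS family genes in the THAP7-AS1 knockdown library (left bars) and the si-NC control library (right bars), 1 library each; FLI1, listed at 0 in knockdown cells, is left out. SPDEF and EHF stand above all others in both, and ELK1 is lower in knockdown cells.

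MUC1 was at 13.4 FPKM in knockdown cells, against 12.9 FPKM in control cells. The log2 ratio was 0.05 on the FPKM + 1 scale, and the estimated counting interval without the added 1, -0.30 to 0.41, spanned 0. That ratio is uncertain for another measured reason. The gene ENSG00000273088 shares exons with MUC1 on the same strand, and it was at 3.33 FPKM in knockdown cells and listed at 0 in control cells. How the authors' software divided reads between the 2 models was not tested.

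MUC1 had the highest FPKM of the 6 mucin genes measured. MUC15 followed at 6.90 FPKM in knockdown cells and 7.31 FPKM in control cells. The wider list of mucins, enzymes that glycosylate them and the MUC1-linked genes LGALS3, CTNNB1 and CTNND1 had 21 genes kept by the filter, 13 above 0 and 8 below, with a median log2 ratio of 0.05 and none at least 1.5-fold apart. Its most abundant member was LGALS3, the lectin galectin-3, at 42.8 FPKM in knockdown cells and 40.5 FPKM in control cells. B3GNT3, which extends core O-glycans, had the highest ratio at 25.7 FPKM in knockdown cells and 17.3 FPKM in control cells.

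The other luminal and epithelial transcription factors were mostly slightly above 0. Of 18 kept by the filter 13 were above 0 and 5 below, with a median log2 ratio of 0.07 on the FPKM + 1 scale. ESRRA, an orphan receptor that governs oxidative metabolism, was the 1 gene at least 1.5-fold higher, at 17.7 FPKM in knockdown cells, against 8.64 FPKM in control cells, and none was at least 1.5-fold lower. CREB3L4, a membrane-bound factor of secretory cells, was at 6.01 FPKM in knockdown cells and 4.22 FPKM in control cells. TFAP2C, a factor of luminal gene expression, was at 32.01 FPKM in knockdown cells and 32.06 FPKM in control cells.

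Luminal surface, keratin and secreted markers gave 31 genes kept by the filter, 20 above 0 and 11 below. Their median log2 ratio was 0.05 on the FPKM + 1 scale and none was at least 1.5-fold apart. KRT19, a keratin of luminal cells, was the most abundant at 1106 FPKM in knockdown cells and 1057 FPKM in control cells. Other keratins of luminal type were also abundant. KRT18 was at 201 FPKM in knockdown cells and 166 FPKM in control cells, and its partner KRT8 at 178 FPKM in knockdown cells and 167 FPKM in control cells. The adhesion gene EPCAM was at 232 FPKM in knockdown cells and 224 FPKM in control cells, whereas CDH1, which encodes E-cadherin, was at 12.4 FPKM in knockdown cells and 17.1 FPKM in control cells. The receptor gene ERBB2 had the highest ratio of this list, at 6.61 FPKM in knockdown cells, against 4.14 FPKM in control cells. STARD10, a lipid transfer protein gene, was at 16.5 FPKM in knockdown cells, against 11.6 FPKM in control cells.

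The luminal genes stood beside basal markers in the same libraries. KRT5 was at 64.0 FPKM in knockdown cells and 55.6 FPKM in control cells, KRT17 at 77.4 FPKM in knockdown cells and 76.9 FPKM in control cells, and EGFR at 258 FPKM in knockdown cells and 336 FPKM in control cells. KRT14 was lower in level, at 5.94 FPKM in knockdown cells and 3.25 FPKM in control cells. VIM was at 2.29 FPKM in knockdown cells and 1.57 FPKM in control cells, CAV1 at 4.01 FPKM in knockdown cells and 5.19 FPKM in control cells, and KRT6A was below 1 FPKM in both. TP63, the basal transcription factor, is not analysed here, nor are ESR1 and PGR, the estrogen and progesterone receptor genes of the luminal side. Some luminal markers were below 1 FPKM in both libraries, CLDN4, CA12 and INPP4B among them. Some markers of each kind were thus present and others were not, and the name luminal is used of the genes and not of the line. In bulk RNA, fewer cells of a kind and less RNA per cell cannot be told apart.

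The basal list was not on the other side of 0. Of 30 basal and myoepithelial markers kept by the filter 19 were above 0 and 11 below, where 53.1% of all genes were above 0, with a median log2 ratio of 0.04 on the FPKM + 1 scale. At least 1.5-fold higher were 3, against 2.98% of all genes, and none was at least 1.5-fold lower. The small heat shock protein gene CRYAB was at 8.72 FPKM in knockdown cells, against 3.89 FPKM in control cells. KRT15 was at 8.50 FPKM in knockdown cells, against 5.05 FPKM in control cells. The other was KRT14, at the levels given above. The luminal progenitor and alveolar genes, 8 kept by the filter, had a median log2 ratio of -0.04, with 3 above 0 and none at least 1.5-fold apart. SLPI, a secreted protease inhibitor, was their most abundant at 234 FPKM in knockdown cells and 240 FPKM in control cells, and ALDH1A3 was at 99.5 FPKM in knockdown cells and 124 FPKM in control cells.

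**Figure D4:**
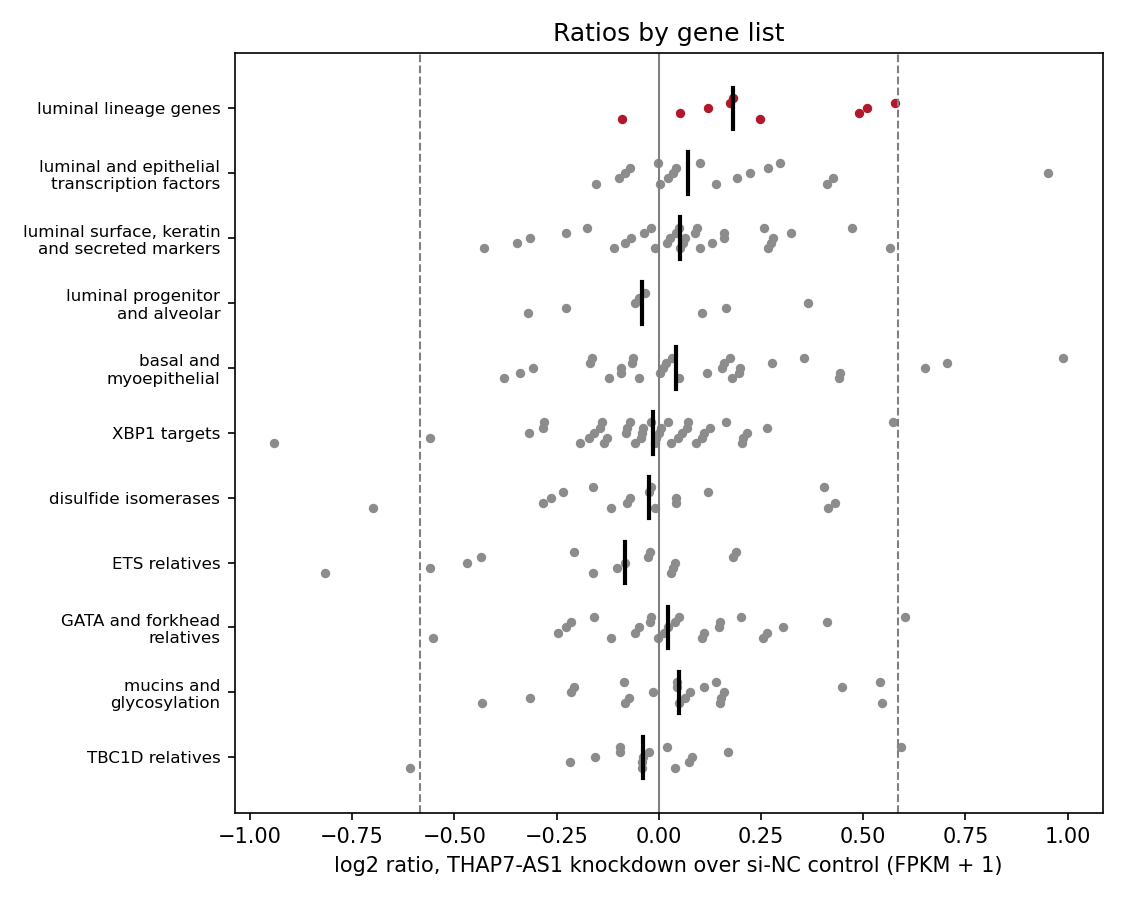
Log2 ratio (FPKM + 1), THAP7-AS1 knockdown over si-NC control, of each gene kept by the filter in 11 lists; black bars are list medians and dashed lines 1.5-fold. The luminal lineage genes have the highest median, 0.18, and were chosen with these ratios known.

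Markers of blood, vessel and stroma were low in both libraries, and other lineages were not surveyed. Of 16 such markers 4 were measured, and they summed to 5.43 FPKM in knockdown cells and 5.51 FPKM in control cells. The macrophage marker CD68, which epithelial lines also express, was the most abundant at 3.30 FPKM in knockdown cells and 3.25 FPKM in control cells. COL1A1 was at 0.866 FPKM in knockdown cells and 0.874 FPKM in control cells. The other 12, with PTPRC, CD3E, PECAM1, COL3A1 and HBB among them, are not analysed here.

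Levels can also be set against another gene of the same library. GATA3 was the only one of the 9 below 0, so a quotient over GATA3 had to be higher in knockdown cells. AGR2 stood at 0.571 times the level of GATA3 in knockdown cells and 0.340 times in control cells, and TBC1D9 at 0.364 times in knockdown cells and 0.223 times in control cells. SPDEF stood at 5.09 times the level of GATA3 in knockdown cells and 4.01 times in control cells. FOXA1 stood at 1.36 times in knockdown cells and 1.17 times in control cells. A common scaling factor of a library leaves these quotients unchanged, but all 4 share the value of GATA3 and are not separate observations of it. Between 2 genes above 0 the quotients lay closer in some pairs, as for EHF over ELF3 above and for SPDEF, which stood at 1.38 times the level of EHF in knockdown cells and 1.31 times in control cells. AGR2 stood at 0.711 times the level of MUC1 in knockdown cells and 0.470 times in control cells.

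**Figure D5:**
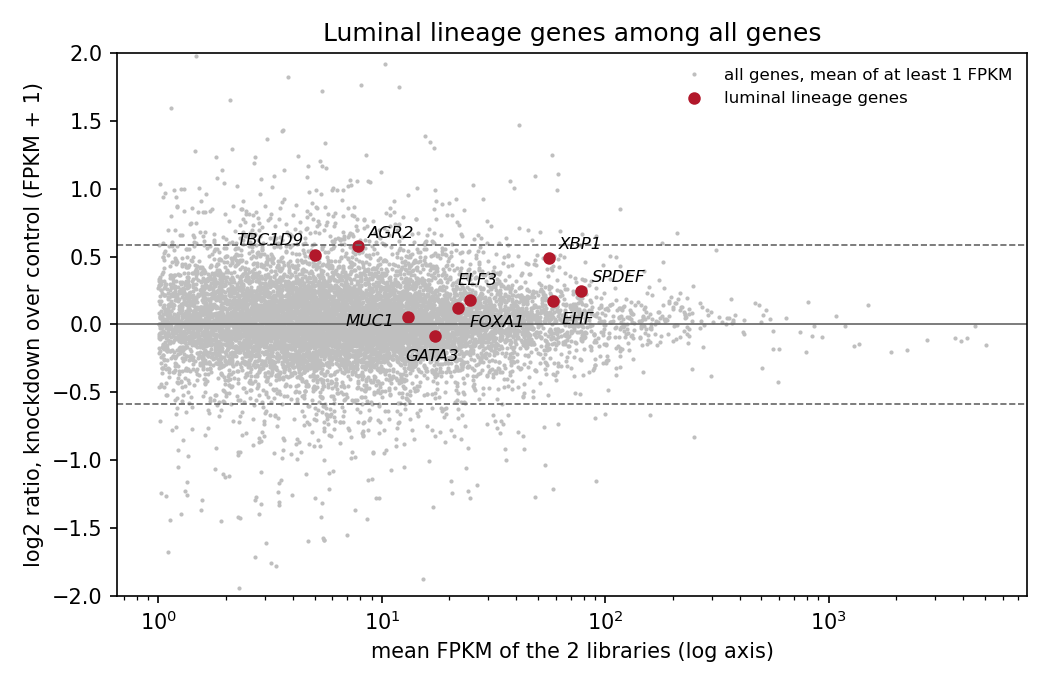
Log2 ratio (FPKM + 1), knockdown over control, against the mean FPKM of the 2 libraries (log axis) for 10925 genes (grey; 17 lie outside the axis limits of 2), with the luminal lineage genes in red and dashed lines at 1.5-fold. All 9 lie inside the dashed lines, with AGR2 next to the upper one.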

How the data were processed

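Each library has 1 table of FPKM per gene, computed by the authors, per the file headers. Cutadapt, HISAT2 2.0.5, StringTie and the build hg19 are named in the submitters' processing notes; other versions, the annotation and strandedness are not stated. Symbols came from a table of gene identifiers (12746 matched), overlaps and transcript lengths from GENCODE release 29, by identifier, and promoter windows from RefSeq (GRCh38.p14).

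Log2 ratios used FPKM + 1, genes averaging under 1 FPKM were left out, and a rule of size of 1.5-fold took the place of a test. Depth was estimated from FPKM times length of single-transcript genes, within a window of 80 to 100 set after seeing the values. The median in that window was taken as the value of 1 fragment. It was 89.7 in the knockdown library (14 genes) and 91.4 in the control library (10 genes). Such a median must lie inside the window, so it does not show that values gather there. Counting intervals (95%) used the shortest principal transcript of a gene, are approximate and cover counting error only. The computation was tested on simulated data.

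The genes and lists were chosen with earlier results of these data known. Named were the 9 genes, defining markers, and from each list up to 3 genes that averaged 5 FPKM or more and differed 1.5-fold or more, or else the most abundant; other names were chosen after their values were seen. Python 3.11.15, numpy 2.4.6, pandas 2.3.3 and matplotlib 3.10.9 were used.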

Additional observations from a re-analysis of the deposited data

How the results depend on the processing

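The number of luminal genes at least 1.5-fold higher, 0 at a pseudocount of 1 FPKM, was 2 (AGR2 and TBC1D9) with a pseudocount of 0.1 FPKM and 2 with none, a setting chosen after seeing the data. Over all genes that number, 326 or 2.98%, was 547 (5.01%) with a pseudocount of 0.1 FPKM, 586 (5.36%) with none, 88 (0.805%) with 5 FPKM and 168 (2.55%) with a mean of at least 5 FPKM; by construction, adding more to both values brings low genes nearer to 0 and a stricter filter keeps fewer genes. None of the 9 genes changed sign under the 7 alternatives for pseudocount, centring and scaling, and 63 of 63 values stayed within 1 SD, computed from the MAD of genes of like level. By construction a pseudocount cannot change a sign, and centring takes the same small value, 0.02, from every ratio. Unchanged signs under those settings are therefore no separate check. AGR2 ran from 0.39 to 0.65, TBC1D9 from 0.30 to 0.61, XBP1 from 0.46 to 0.50 and GATA3 from -0.11 to -0.07 on the log2 scale. Of 80 list medians under other settings 1 changed sign, that of the ETS relatives, which was -0.08 and became 0.00094 with a mean of at least 5 FPKM; that filter leaves out 5 of the 15, ELF2, ELK3, ETV4, ETV5 and ETV7, all below 0. None of the 10 list means differed in sign from its median, but 5 were over 1.5 times as far from 0: 0.15 for the other luminal transcription factors, 0.11 for the basal markers, -0.16 for the ETS relatives, -0.04 for the XBP1 targets and 0.04 for the GATA and forkhead relatives. No paired analysis was possible because each group has 1 library. By the estimated depth the counting SE of the 9 log2 ratios was largest for MUC1, 0.18. That rank depends on the 859 bases taken as the length of MUC1, the shortest of the 9, which give it few fragments for its FPKM. No alternative measures the spread between cultures.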

Other observations

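Genes whose RefSeq promoter windows hold the same endoplasmic reticulum stress element as XBP1 form a set defined after the values had been seen. Of 25 such genes, XBP1 included, 16 were measured, and 14 others than XBP1 passed the mean of 1 FPKM. Of these 14, 9 were above 0, where 53.1% of all genes were, and 5 were below. Their median log2 ratio was 0.04 on the FPKM + 1 scale, and none was at least 1.5-fold apart. The zinc finger gene ZNF17, at 1.64 FPKM in knockdown cells and 0.771 FPKM in control cells, and SERP1 had ratios of 0.58 and 0.57, above the 0.49 of XBP1. The abundant chaperone genes of the set lay near 0. CALR was at 328 FPKM in knockdown cells and 316 FPKM in control cells, CANX at 157 FPKM in knockdown cells and 160 FPKM in control cells, and HSP90B1 at 163 FPKM in knockdown cells and 171 FPKM in control cells. PDIA6 had a log2 ratio of -0.01.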
